A study of Mus musculus with 13 samples.

Results

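The genes of the mouse major histocompatibility complex (MHC) on Chromosome 17 were followed in maps of pericentromere-associated domains (PADs). They were chosen by name, as every gene with a symbol starting *H2-* on Chromosome 17 of mm9 together with *Tap1*, *Tap2*, *Tapbp*, *Psmb8* and *Psmb9*, and they number 47 of 37216 gene entries placed in the genome. Of these, 41 are protein-coding and 6 are pseudogenes or transcripts of other types, and *H2-Q2* has 2 separate entries in the annotation. Each gene took the call of the fragment end closest to its midpoint. The rule for choosing the genes used no measured value.

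Satellite 4C (sat4C) sequences the genomic fragments ligated to major satellite repeats, the DNA of the chromocenters in which the pericentromeric heterochromatin of several mouse chromosomes comes together. It was applied to embryonic stem cells (ESCs) of the IB10 line, of strain 129/ola (3 replicates), to neural precursor cells (NPCs) derived from these ESCs (2 replicates), to astrocytes (ACs) derived from the NPCs (2 replicates), and to thymus tissue of adult male C57BL/6 mice (3 replicates in 6 sets of reads). All cells were crosslinked with formaldehyde and were untreated otherwise. Each thymus replicate was sequenced on Illumina GAII and HiSeq instruments, and the other cells on HiSeq only. The ESCs, NPCs and ACs descend from a single cell line. Strain, culture, cell type and sequencing platform differ together between these cells and the thymus, so that these cannot be told apart. The calls say PAD or non-PAD for each fragment end, once per cell type, after the authors combined the replicates. The depth behind a call is therefore unknown, no spread between replicates can be given, and all comparisons below are counts without a test. The calls hold no expression values, so the labeled cell types could not be compared with their marker genes.

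The MHC gathers genes that show pieces of proteins to T cells. Class I molecules carry peptides made by the proteasome in the cytosol, class II molecules carry peptides from endosomes and are typical of B cells, dendritic cells and thymic epithelium, and the region between them (class III) holds complement and cytokine genes. In the mouse the classical class I genes *H2-K1* and *H2-D1* lie at opposite sides of the class II and class III genes, followed by the nonclassical class Ib genes of the Q, T and M regions, farther from the centromere. Class II genes and the genes for peptide processing are induced by interferon gamma, and ESCs are known for low levels of MHC molecules.

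The 47 genes lie between positions 34052844 and 37620497 of Chromosome 17 (3.57 Mb, mm9). A call rests on a fragment end, the stretch from a site of the enzyme MfeI (CAATTG) to the next site of NlaIII (CATG). For each cell type, the following sequences are the fragment ends at the border in the region whose neighboring ends start closest together. They are given from the plus strand of NCBIM37 (mm9), 5′ to 3′, with the MfeI and NlaIII sites at their ends in capitals. At the NPC border both fragment ends are longer than 300 bases, and 300 bases around the MfeI site that they share are given, with that site in capitals. None of these sequences overlaps an annotated gene.
ESC border, last non-PAD end (chr17:35687871-35688042): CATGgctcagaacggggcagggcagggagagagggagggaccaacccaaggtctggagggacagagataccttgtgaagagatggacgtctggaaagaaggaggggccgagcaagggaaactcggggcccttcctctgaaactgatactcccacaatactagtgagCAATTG
ESC border, first PAD end (chr17:35688037-35688315): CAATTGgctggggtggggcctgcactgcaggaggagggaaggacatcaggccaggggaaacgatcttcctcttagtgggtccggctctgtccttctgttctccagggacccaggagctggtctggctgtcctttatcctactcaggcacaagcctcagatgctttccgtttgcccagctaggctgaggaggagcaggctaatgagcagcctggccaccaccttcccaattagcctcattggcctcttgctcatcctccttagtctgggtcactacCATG
NPC border, sequence around the shared MfeI site (chr17:36548319-36548618): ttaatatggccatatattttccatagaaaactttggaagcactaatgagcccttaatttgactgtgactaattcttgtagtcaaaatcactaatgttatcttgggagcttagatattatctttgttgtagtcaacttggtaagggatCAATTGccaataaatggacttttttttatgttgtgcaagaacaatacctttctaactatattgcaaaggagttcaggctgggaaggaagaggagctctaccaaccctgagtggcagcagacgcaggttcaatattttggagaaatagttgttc
AC border, last non-PAD end (chr17:36619706-36619866): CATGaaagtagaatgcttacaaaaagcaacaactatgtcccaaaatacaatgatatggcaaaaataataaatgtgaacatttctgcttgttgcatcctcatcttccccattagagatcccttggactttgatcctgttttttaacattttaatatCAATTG
AC border, first PAD end (chr17:36620438-36620561): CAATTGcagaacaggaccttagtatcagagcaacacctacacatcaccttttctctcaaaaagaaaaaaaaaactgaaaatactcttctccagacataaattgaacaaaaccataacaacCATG
thymus border, last non-PAD end (chr17:37420806-37420907): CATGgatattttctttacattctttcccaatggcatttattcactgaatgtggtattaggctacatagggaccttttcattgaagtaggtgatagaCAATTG
thymus border, first PAD end (chr17:37420902-37421040): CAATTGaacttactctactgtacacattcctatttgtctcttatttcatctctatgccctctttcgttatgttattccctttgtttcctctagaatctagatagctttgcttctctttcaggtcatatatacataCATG

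At the ESC, NPC and thymus borders the neighboring calls came from the 2 sides of a single MfeI site. The first bases of these ends were 166, 359 and 96 bp apart. These distances are the spacing of ends where the call switches and not the precision of a border. The study states that differences between cells limit how exactly borders can be defined. At the AC border the neighboring ends started 732 bp apart and belonged to different MfeI sites. Of the 47 genes, 12 contained the start of a fragment end, and the other 35 took their call from an end outside the gene. The following ends lie inside genes and are written in the same way, all in coding exons except that of *Tap2*, which is in an intron. They were selected as short ends from genes that differ in their calls.
*H2-DMa* (chr17:34275112-34275144): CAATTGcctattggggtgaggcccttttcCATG
*Tap2* (chr17:34345184-34345223): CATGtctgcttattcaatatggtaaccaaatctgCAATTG
*H2-M11* (chr17:36684811-36684950): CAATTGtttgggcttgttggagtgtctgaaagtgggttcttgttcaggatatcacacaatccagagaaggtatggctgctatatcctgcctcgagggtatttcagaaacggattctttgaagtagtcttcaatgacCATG
*H2-M1* (chr17:36808272-36808341): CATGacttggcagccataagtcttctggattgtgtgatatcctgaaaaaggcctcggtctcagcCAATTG
*H2-M10.5* (chr17:36910283-36910313): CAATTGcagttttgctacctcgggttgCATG

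The ends in *H2-DMa* and *Tap2* were PAD in NPCs only. The ends in *H2-M11* and *H2-M1* were PAD in ESCs, NPCs and ACs. The end in *H2-M10.5* was PAD in ESCs and ACs. In the thymus all 5 ends were non-PAD.

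The MHC genes were mostly non-PAD in ESCs, ACs and the thymus and mostly PAD in NPCs. In ESCs 13 of 47 genes (27.7%) were in PADs, against 46.5% of all 22329 protein-coding genes. In NPCs 31 genes (66.0%) were in PADs, against 68.5% of all genes. In ACs 7 genes (14.9%) were in PADs, against 34.9% of all genes. In the thymus only *H2-M2* (2.13%) was in a PAD, against 26.1% of all genes. The share among MHC genes was thus close to that of all genes in NPCs and below it in the 3 other cell types. The 47 genes are not independent of each other, since they lie in 1 region and neighbors share domains and, in 7 pairs, the same fragment end.

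**Figure D1:**
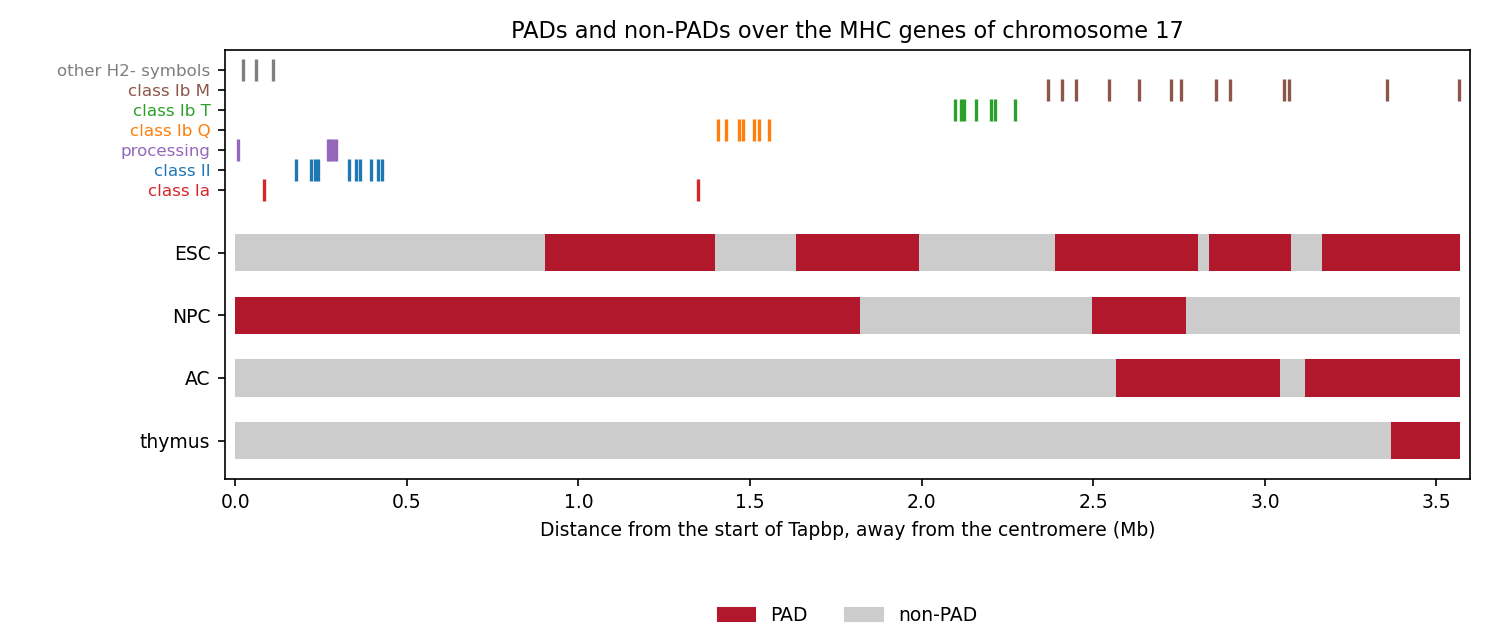
PAD (red) and non-PAD (gray) domains of each cell type along 3.57 Mb of Chromosome 17, in Mb from the start of *Tapbp*, with the position of each MHC gene marked by class in the upper rows. The thymus has a single border, 3370 kb from the start of *Tapbp*, whereas ESCs have 9 borders. On the whole chromosome ESCs also have the most domains and the thymus the fewest.

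The genes fell into 7 of the 16 possible combinations of calls. The most frequent combination, PAD in NPCs and non-PAD in ESCs, ACs and thymus, held 26 genes (55.3%), against 23.9% of all genes. Non-PAD in all 4 cell types were 8 genes (17%), against 20.1% of all genes. No MHC gene was PAD in all 4 cell types. The other 13 genes were all PAD in ESCs, and each of them except *H2-D1* is a class Ib gene of the M region. PAD in ESCs only were 4 genes, a combination of 2.28% of all genes. PAD in ESCs and ACs were 3 genes (0.972% of all genes). PAD in ESCs and NPCs were 2 genes (12.2% of all genes), PAD in all but the thymus were 3 (11.1%), and PAD in all but NPCs was 1 (2.49%). PAD in ESCs only and PAD in ESCs and ACs, the 2 rarest of these combinations in the genome, thus held 7 genes, all of the M region. Other genes of the region had these combinations too, so they were not particular to MHC genes. *Ier3* to *Atat1* and *Znrd1as* were PAD in ESCs only. *Trim26* to *Znrd1* and *Olfr90* to *Olfr99* were PAD in ESCs and ACs.

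**Figure D2:**
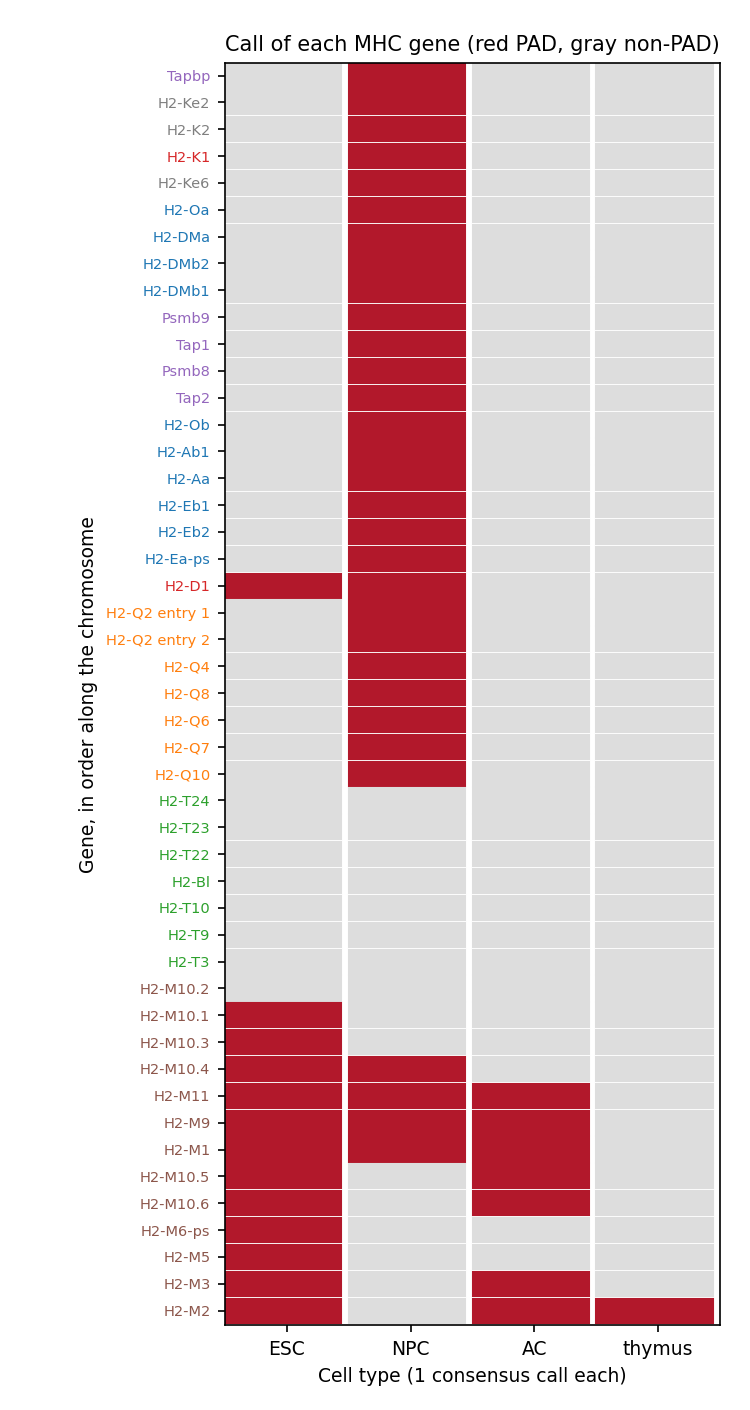
Call of each of the 47 MHC genes (rows, in order along the chromosome, the end nearest to the centromere on top) in the 4 cell types (columns), red for PAD and gray for non-PAD, with gene names colored by class. NPC PADs hold the genes from *Tapbp* to *H2-Q10* and 4 genes of the M region, and the thymus column is red at *H2-M2* only.

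The classical class I genes differed in 1 of 4 cell types. *H2-K1* (34132962 to 34137278) was PAD in NPCs and non-PAD in ESCs, ACs and thymus. *H2-D1* (35399675 to 35404444) was PAD in ESCs and NPCs and non-PAD in ACs and thymus. The ESC PAD of *H2-D1* measured 495 kb and held 50 protein-coding genes, and the gene midpoint was 47.3 kb from its border. Both genes encode the heavy chains that present peptides to cytotoxic T cells.

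All 10 class II genes shared a combination, PAD in NPCs and non-PAD elsewhere. These are *H2-Aa*, *H2-Ab1*, *H2-Eb1*, *H2-Eb2* and the pseudogene *H2-Ea-ps* for the peptide-presenting molecules I-A and I-E, *H2-DMa*, *H2-DMb1* and *H2-DMb2* for the peptide exchange factor DM, and *H2-Oa* and *H2-Ob* for DO, which inhibits DM. They span 252 kb with 30 fragment ends. Their ESC domain was a non-PAD of 907 kb with 101 fragment ends, 53 protein-coding genes and 19 MHC genes. The class II midpoints were at least 184 kb from a border in each cell type, the closest being that of *H2-Oa* in ESCs. The class II calls therefore do not rest on the placement of a single border.

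The 5 genes of peptide processing had the same calls as class II. *Tap1* and *Tap2* form the peptide transporter of the endoplasmic reticulum, *Tapbp* encodes tapasin, which ties the transporter to class I molecules, and *Psmb8* and *Psmb9* encode subunits of the immunoproteasome. *Tap1*, *Tap2*, *Psmb8* and *Psmb9* lie among the class II genes, 275 to 300 kb from the nearest ESC border. *Tapbp* lies 12.7 kb from an ESC border and was non-PAD in ESCs through a fragment end 9.54 kb from its midpoint. With the call of the deposited interval that holds its midpoint, *Tapbp* was PAD in ESCs. *H2-Ke2* and *H2-Ke6*, which carry an *H2-* symbol but encode no MHC molecule, and the pseudogene *H2-K2* were also PAD in NPCs only.

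The 7 Q entries (*H2-Q2* entry 1, *H2-Q2* entry 2, *H2-Q4*, *H2-Q6*, *H2-Q7*, *H2-Q8* and *H2-Q10*) were PAD in NPCs only, as were the class II genes. They include *H2-Q7*, which encodes the Qa-2 antigen, and *H2-Q10*, which encodes a secreted class I molecule of the liver. In ESCs they lay in a non-PAD of 239 kb between 35449340 and 35687954 that separated 2 PADs of 495 and 358 kb. This domain rested on 6 fragment ends and held 10 protein-coding genes, among them *Pou5f1*, *Tcf19*, *Cchcr1* and *Psors1c2* beyond *H2-Q10*. Between the first and last Q gene 4 fragment ends were called, and 4 of 20 MfeI sites had a called end, against 9689 of 16543 on Chromosome 17 (58.6%). The 7 entries took their calls from 4 fragment ends at distances of 4.52 to 20.1 kb. *H2-Q2* entry 1, 10.4 kb from the ESC border, was PAD in ESCs with the call of the deposited interval.

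The 7 genes of the T region (*H2-T24*, *H2-T23*, *H2-T22*, *H2-Bl*, *H2-T10*, *H2-T9* and *H2-T3*) were non-PAD in all 4 cell types. *H2-T23* encodes Qa-1, a ligand of inhibitory receptors on natural killer cells, and *H2-T22* and *H2-T10* encode ligands of gamma delta T cells. The 7 genes shared a segment of 394 kb (36046211 to 36440438) with *H2-M10.2*, and the segment held 20 fragment ends. A gap of 113 kb (36119456 to 36232856) with 15 MfeI sites and no called end held the midpoints of *H2-T24*, *H2-T23*, *H2-T22* and *H2-Bl*. Their calls came from ends 21.3 to 56.0 kb away, the largest distance being that of *H2-T22*. The ends on both sides of this gap were non-PAD in each cell type, and the T midpoints were at least 104 kb from a border. The gap holds no calls, so the state of the sequence inside it is unknown.

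**Figure D3:**
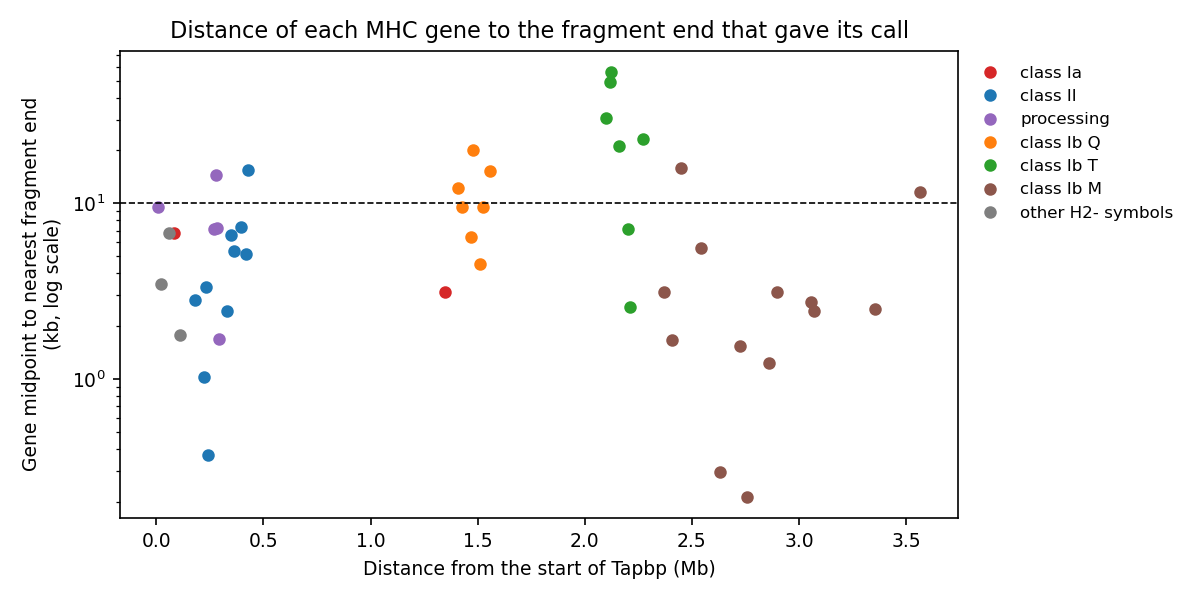
Distance from the midpoint of each MHC gene to the fragment end that gave its call (kb, log scale) against its position from the start of *Tapbp* (Mb), colored by class, with a dashed line at 10 kb. Of the 12 genes above the line, 5 belong to the T region and 3 to the Q region.

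Fragment ends were sparse in the region as a whole. It held 392 ends, or 110 per Mb, against 144 per Mb on Chromosome 17. MfeI sites numbered 161 per Mb in the region and 179 per Mb on the chromosome, and 49.2% of the sites in the region had a called end. Between the first and last class II gene 56.5% of sites had a called end, among the T genes 17.9% and among the M genes 46.0%. The Q and T genes were thus the least well covered. The median distance from a gene to its fragment end was 5.59 kb over all 47 genes, with medians of 2.52 kb for the M genes, 4.26 kb for class II, 9.52 kb for the Q genes and 23.4 kb for the T genes.

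The 13 genes of the M region had the most varied calls, with 6 combinations. ESC PADs held 12 of them (92.3%), against 46.5% of all genes, and NPC PADs held 4 (30.8%), against 68.5%. AC PADs held 7 (53.8%), against 34.9% of all genes, and thymus PADs held 1 (7.69%), against 26.1%. The share of the M genes was thus above that of all genes in ESCs and ACs and below it in NPCs and the thymus. *H2-M1*, *H2-M9*, *H2-M11* and the *H2-M10* genes form a family known for expression in vomeronasal neurons. *H2-M11*, *H2-M9* and *H2-M1* were PAD in ESCs, NPCs and ACs. *H2-M10.4* was PAD in ESCs and NPCs and non-PAD in ACs and thymus, with the AC border 22.5 kb from its midpoint. *H2-M10.5* and *H2-M10.6* were PAD in ESCs and ACs and non-PAD in NPCs and thymus. *H2-M10.1* and *H2-M10.3* were PAD in ESCs only, and *H2-M10.2* was non-PAD throughout. The 6 *H2-M10* genes therefore had 4 combinations of calls among them.

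Beyond this family, *H2-M6-ps* and *H2-M5* were PAD in ESCs only. Their AC domain was a non-PAD of 71.8 kb with 12 fragment ends, enclosed by AC PADs of 478 kb and 2.54 Mb. *H2-M5* was 3.98 kb from an ESC border, the shortest distance to a border among the MHC genes. *H2-M3*, which presents N-formylated bacterial peptides, was PAD in ESCs and ACs and non-PAD in NPCs and thymus. *H2-M2*, the MHC gene farthest from the centromere, was PAD in ESCs, ACs and thymus and non-PAD in NPCs. It was also the only one in a thymus PAD, and its fragment end was 11.6 kb from its midpoint, so that the thymus count was 0 over the 35 genes within 10 kb of an end. *H2-M3* and *H2-M2* are separated by the only thymus border in the region, which was 11.6 kb from *H2-M3* and 198 kb from *H2-M2*.

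In the thymus, 46 of the 47 genes lay in a single non-PAD of 3.85 Mb (33573306 to 37420854) with 417 fragment ends and 199 protein-coding genes. By size it ranked 97 of the 838 thymus non-PADs, and by the number of genes it ranked 12. The thymus PAD that followed, with *H2-M2*, measured 5.63 Mb (37420854 to 43050531). The border between them lay between the olfactory receptor genes *Olfr99* and *Olfr101*, where the neighboring ends started 96 bp apart. The other border of the non-PAD, toward the centromere, was 486 kb from the midpoint of *Tapbp*. Except for *H2-M2*, the MHC genes were thus in 1 domain of the thymus.

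In NPCs, 27 genes from *Tapbp* to *H2-Q10* lay in a single PAD of 3.93 Mb (31942394 to 35873067) with 447 fragment ends and 174 protein-coding genes. By size it ranked 107 of 1125 NPC PADs, and by the number of genes it ranked 5. It ended between *Ddr1*, which encodes a collagen receptor, and *Ier3*, with 32.9 kb between the neighboring ends. A non-PAD of 675 kb with 10 MHC genes, a PAD of 274 kb with *H2-M10.4*, *H2-M11*, *H2-M9* and *H2-M1*, and a non-PAD of 1.27 Mb with 6 M genes followed.

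In ACs, 38 genes from *Tapbp* to *H2-M10.4* lay in a non-PAD of 2.67 Mb (33947168 to 36620072) with 246 fragment ends and 160 protein-coding genes. It ended between *H2-M10.4* and *H2-M11*. The AC PAD of 478 kb behind it held 5 M genes and ended over *Znrd1as*, between *Znrd1*, which encodes a subunit of RNA polymerase I, and *H2-M6-ps*. The next AC border lay between the myelin gene *Mog* and *Gabbr1*, a subunit of the GABA-B receptor.

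ESCs divided the same sequence into 10 domains by 9 borders, whereas NPCs and ACs had 3 borders each and the thymus had 1. On the whole of Chromosome 17 (92.3 Mb), ESCs had 54 PADs and 53 non-PADs, and NPCs had 40 and 39. ACs had 37 and 36 there, and the thymus had 24 and 23. The most domains in ESCs and the fewest in the thymus were thus found on the whole chromosome too. The border at 34954052 lay over *C4a*, a complement C4 gene, so that *C4b* was non-PAD and *Cfb*, *C2*, *Tnf*, *Lta* and *Ltb* were PAD in ESCs. The border at 35449340 lay between *H2-D1* and *H2-Q2*, in a gap of 45.2 kb. The next borders lay between *Psors1c2* and *Cdsn* and over *Atat1*, which encodes a tubulin acetyltransferase. A border at 36440438 separated *H2-M10.2* from *H2-M10.1*. The 2 borders between *H2-M1* and *H2-M10.5* enclosed a non-PAD of 34.6 kb that rested on 2 fragment ends and held no gene. The remaining ESC borders lay between *H2-M5* and *Zfp57* and between *Gabbr1* and *Olfr90*.

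No border was shared between cell types to the position. The smallest distance was 29984 bp, between the ESC border beside *H2-M5* and the AC border over *Znrd1as*, and *H2-M6-ps* and *H2-M5* lie between them. The next was 34682 bp, between the ESC and NPC borders behind *H2-M1*. The NPC border between *H2-M10.3* and *H2-M10.4* and the AC border between *H2-M10.4* and *H2-M11* were 71786 bp apart. The thymus border was at least 201826 bp from any border of the other cell types. Of the 16 borders, 11 lay beyond the start of *H2-M10.2*, in the sequence of the M genes, 5 of them from ESCs. That sequence made up 1.2 of 3.57 Mb of the region and held 175 of its 392 fragment ends.

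Relative to ESCs, the calls of the MHC genes changed in both directions in NPCs and in 1 direction in ACs and thymus. In NPCs 26 genes (55.3%) were PAD that were non-PAD in ESCs, against 29.1% of all genes, and 8 M genes (17%) were non-PAD that were PAD in ESCs, against 7.1%. In ACs 0 genes were PAD that were non-PAD in ESCs, against 5.63% of all genes, and 6 (12.8%) were non-PAD that were PAD in ESCs, against 17.2%. The 6 were *H2-D1*, *H2-M10.1*, *H2-M10.3*, *H2-M10.4*, *H2-M6-ps* and *H2-M5*. In the thymus 0 genes were PAD that were non-PAD in ESCs, against 6.07% of all genes. There 12 genes (25.5%) were non-PAD that were PAD in ESCs, against 26.5%. These shares depend on how many genes were PAD in ESCs, which was 13 of 47 MHC genes and 10383 of all 22329 genes. Of the genes that were PAD in ESCs, 12 of 13 MHC genes were non-PAD in the thymus, against 5918 of 10383 genes. In ACs 6 of these 13 MHC genes were non-PAD, against 3841 of 10383 genes. In NPCs 8 of the 13 were non-PAD, against 1586 of 10383 genes. Of the 34 MHC genes that were non-PAD in ESCs, 26 were PAD in NPCs. Over all 22329 genes that number was 6488, out of those not among the 10383. The 3 comparisons share the ESC calls.

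Sequence in PADs followed the counts of genes only in part. PADs covered 53.5% of the MHC region in ESCs, against 53.7% of Chromosome 17 and 52.5% of the genome. In NPCs they covered 58.7% of the region, against 58.1% of the chromosome and 68.0% of the genome. In ACs the region had 26%, against 48.6% of the chromosome and 50.5% of the genome. In the thymus it had 5.6%, against 43.6% of the chromosome and 48.4% of the genome. These low values depended on the limits of the region and on the unit counted, since with 500 kb added on each side PADs covered 39.9% in ACs and 15.8% in the thymus, and counted in fragment ends the thymus had 8.67%. In ESCs the region was covered like the chromosome by sequence within these limits (53.5% against 53.7%). This value depended on limits and unit too, with 63.5% when 500 kb were added on each side and 62.8% in fragment ends. The chromosome was not counted in fragment ends. Of the MHC genes 27.7% were in ESC PADs, and the ESC PADs held mainly other genes.

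**Figure D4:**
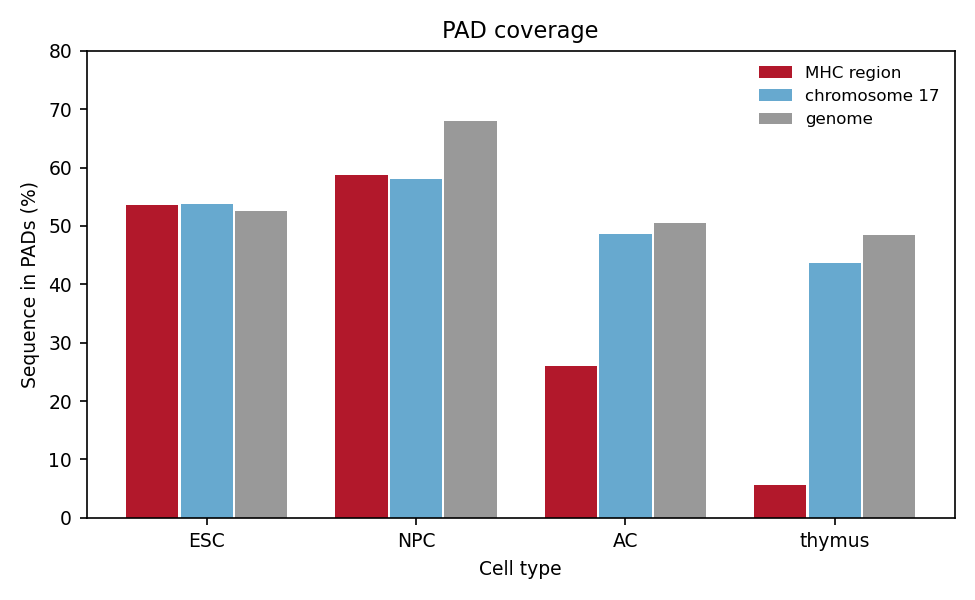
Percent of sequence in PADs in the MHC region (red), on Chromosome 17 (blue) and in the genome (gray) for each cell type. The bars of the region and the chromosome are nearly level in ESCs and NPCs, whereas the region is at 26% in ACs and 5.6% in the thymus.

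The 150 other protein-coding genes between *Tapbp* and *H2-M2* give the neighborhood of the MHC genes. In ESCs 13 of 47 MHC genes (27.7%) and 93 of 150 neighbors (62.0%) were in PADs. In NPCs the shares were 66.0% of MHC genes and 63.3% of neighbors. In ACs they were 14.9% of MHC genes and 17.3% of neighbors. The thymus had 2.13% of MHC genes and 4.0% of neighbors in PADs. ESCs were thus the cell type in which MHC genes and their neighbors were farthest apart. Among the neighbors, the 6 listed class III genes were PAD in 5 cases in ESCs, in 6 in NPCs and in 0 in ACs and the thymus. The 16 olfactory receptor genes around *H2-M3*, which encode receptors for odorants in the nose, were all PAD in ESCs and ACs and non-PAD in NPCs, and the 6 beyond the thymus border were PAD in the thymus. *H2-M3* had the calls of the 10 olfactory receptor genes on its side of that border.

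**Figure D5:**
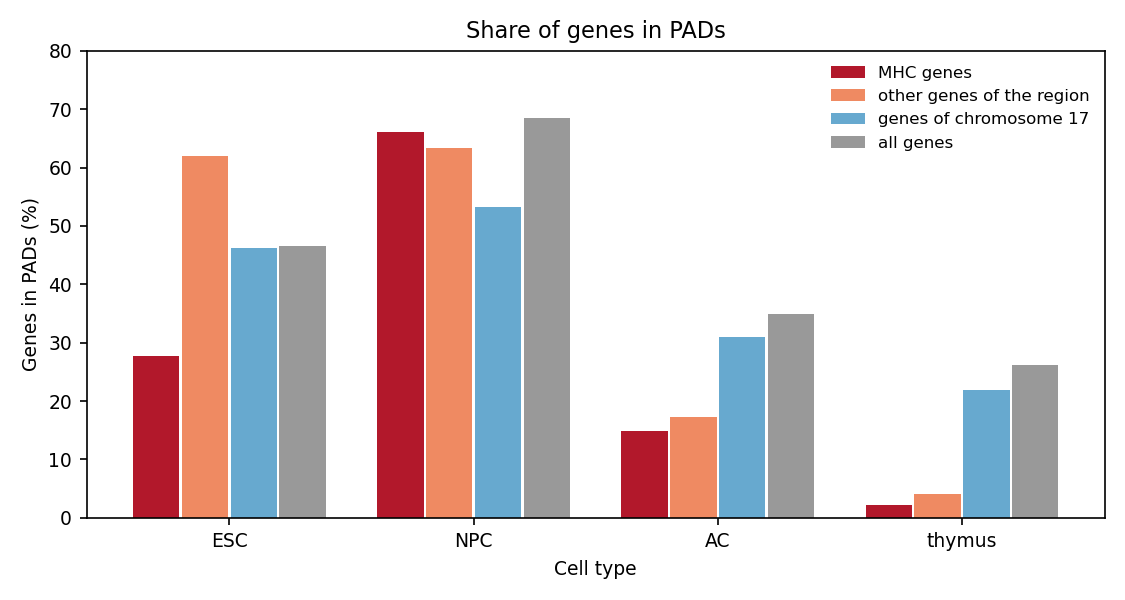
Percent of genes in PADs in each cell type for the 47 MHC genes (red), the 150 other protein-coding genes of the region (orange), the 1091 protein-coding genes of Chromosome 17 (blue) and all 22329 protein-coding genes (gray). The red bar is lowest in ESCs, ACs and thymus, whereas in NPCs it is between the bars of Chromosome 17 (53.3%) and of all genes (68.5%).

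Genes that act with the MHC but lie elsewhere in the genome were examined from a list of 21, of which 20 could be placed. ESC PADs held 7 of the 20 (35.0%), against 46.5% of all genes, and NPC PADs held 13 (65.0%), against 68.5%. AC PADs held 2 (10.0%), against 34.9% of all genes, and thymus PADs held 1 (5.0%), against 26.1%. The NPC share was thus close to that of all genes, and the other shares were below it, over 20 genes and without a test. *Ciita*, the master regulator of class II genes, *Cd74*, the invariant chain that guides class II molecules, and *Irf1*, a transcription factor of the interferon response, had the combination of the class II genes, PAD in NPCs only. *Mr1* and the neighboring genes *Psme1* and *Psme2* of Chromosome 14 had it as well. It is the most frequent combination in the genome, with 23.9% of all genes. *B2m*, the light chain of class I molecules, was non-PAD in all 4 cell types, as were *Calr*, *Pdia3*, *Cd1d1*, *Cd1d2*, *Ifi30* and *Rfxank*. *Canx*, *Ctss*, *Rfx5*, *Rfxap* and *Tapbpl* were PAD in ESCs and NPCs. The proteasome gene *Psmb10* was non-PAD in the thymus only, and *Erap1*, which trims peptides for class I molecules, was PAD in all 4 cell types.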

How the data were processed

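Sat4C was performed on ESCs, NPCs, ACs and thymus. The authors mapped reads to fragment ends of mm9 (aligner not given in the sources used here), binned the coverage of each end and fitted a hidden semi-Markov model with a PAD and a non-PAD state to each replicate. The call of the majority of replicates was kept, and the pooled reads decided ties. The deposited table holds 1 call (PAD or non-PAD, a category without a unit) per cell type for 399232 fragment ends on 20 chromosomes, 13309 of them on Chromosome 17, and no counts, so depth is unknown.

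As in the study's methods, a domain is a run of ends of 1 call, and a border lies midway between the first bases of adjacent ends whose calls differ. On Chromosome 17, 97.9% of these first bases were at an MfeI or NlaIII site of NCBIM37. Genes and their positions came from GENCODE vM1. A gene took the call of the end whose first base was closest to the midpoint of its span. The plan had worded this as the distance to the interval of an end, but the deposited intervals each run to the next end, so the interval that holds the midpoint was used as an alternative chosen after seeing the data. Overlapping entries of *Psmb9* were merged, which left 47 genes of 48 entries. *Nlrc5* was not found under its names in the annotation. Of 22350 protein-coding genes, 22329 were placed and served as the background.

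The genes and lists were chosen with earlier results of these data known. All genes in the rule and the lists were named, together with the genes at each border. No test was made, since there is 1 column per cell type. Alternatives were other placements of genes, protein-coding genes only, genes within 10 kb of an end, *H2-Ke2* and *H2-Ke6* left out, runs under 5 ends absorbed, borders at the outer ends, gaps over 100 kb left out, counting in ends, and the region widened by 500 kb. The placement was run on simulated calls whose genes had their midpoints on the first base of an end. Placement from a distance was therefore not tested. Computations used Python 3.11.15, numpy 2.4.6, pandas 2.3.3 and matplotlib 3.10.9.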

Additional observations from a re-analysis of the deposited data

How the results depend on the processing

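Of 380 comparisons of a count or coverage with its value under an alternative, 369 stayed within a set limit. The limit was 1.5 times for counts and the exact 95% binomial interval over 392 fragment ends for coverage. That interval treats ends as independent although neighbors share domains, so it measures no spread. Counts were compared without the number of genes left, and many were 0 in every setting. The 369 are therefore no measure of robustness. For 45 of 47 genes the number of cell types with a PAD call did not change with their placement. With genes over 10 kb from a fragment end left out (35 remained), the thymus count was 0, as was the thymus count of M genes, and 4 of 4 Q genes were PAD in NPCs. With the deposited interval that holds the midpoint, chosen after seeing the data, 1 Q entry and 1 processing gene were PAD in ESCs. Counted in fragment ends, PADs made up 62.8% of the region in ESCs, 37.5% in ACs and 8.67% in the thymus. With 500 kb added on each side they covered 63.5% in ESCs, 39.9% in ACs and 15.8% in the thymus. The number of ESC borders fell to 7 with runs under 5 ends absorbed. No paired analysis was possible because the calls are 1 consensus column per cell type, and for the same reason no replicate could be left out. The calls of the Q and T genes rest on few ends, so a smaller domain inside the gaps was not detectable.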
